A study of Mus musculus with 11 samples.

Results

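Mouse granulosa cells given either of 2 siRNA pools against Akt1, pools 1 and 4, were compared with cells given a nontargeting scrambled siRNA. The 4 libraries of pools 1 and 4 (2 of each) were taken as 1 group and set against the 3 scramble libraries, 7 of the 11 libraries of the series, and the comparison was described across genes. All 7 came from primary ovarian granulosa cells of RjOrl:SWISS mice, whose age is not given in the sources used here. They were lipofected with 30 pmol of siRNA, the mix was replaced with medium after 5 h, and RNA was taken at 30 h. Each pool held 3 siRNAs. Pool 1 held siRNAs 6, 7 and 8, pool 4 held siRNAs 7, 8 and 9, and so both held 7 and 8, which limits the pools as independent tests of Akt1. The siRNA content of each pool was joined to its libraries by pool number, since the protocol and the library names use different prefixes; this join is assumed. Knockdown was transient. Whether replicates were separate cultures is not given in the sources used here, and p-values therefore cover the spread among these libraries alone, part of which may be technical.

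AKT1 is a serine/threonine kinase that is recruited to the membrane by the lipid product of PI3K and phosphorylates, among others, FOXO factors, GSK3 and TSC2. FOXO factors are kept out of the nucleus when AKT is active, and mTORC1, the growth-promoting kinase complex, is relieved of TSC inhibition. Granulosa cells surround the oocyte, make estradiol and inhibin, and receive survival signals through PI3K and AKT downstream of IGF1 and follicle-stimulating hormone.

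Between 23851293 and 32643158 reads per library were assigned to genes. Levels below are CPM, reads scaled to a common library total with TMM factors over the 11 libraries; they are not divided by gene length and are compared between libraries only. Scramble replicate 1 stood apart, with a median correlation across genes of 0.948 with the other libraries, against 0.990 for the lowest of the others. Relative to scramble replicates 2 and 3 it was higher by a median of 0.79 on the log2 scale for genes with the shortest transcripts (the first of 5 classes, median length 1390 bases) and lower, at −0.93, for those with the longest (6843 bases). Counts of genes that rose or fell in pools 1 and 4 against scramble are therefore given without scramble replicate 1 and with all 7 libraries. Values of single genes are given without it, and with it for part of them: of 107 genes picked by the naming rule that passed without scramble replicate 1, 44 also passed with all libraries and 63 did not. Replicates differed by more than counting noise: the chi-square per degree of freedom over genes was 3.42 between the pool 1 libraries, 3.49 between the pool 4 libraries and 6.55 between scramble replicates 2 and 3.

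Granulosa markers were checked against the label. Foxl2, the transcription factor that maintains granulosa identity, stood at 133 to 152 CPM in the pool libraries and 146 to 203 CPM in scramble, and Inha, the inhibin alpha subunit, at 1649 to 1797 and 2196 to 3494 CPM. Fshr, the receptor for follicle-stimulating hormone, had only 2 to 10 reads per library and Amh, the anti-Müllerian hormone gene, 5 to 27 reads. Cyp19a1, the aromatase gene, was low at 2.03 to 2.53 CPM in the pools and 2.77 to 3.22 CPM in scramble (56 to 105 reads).

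Akt1 (ENSMUSG00000001729.14, mm10 chr12:112653821-112674884, minus strand), the target of the siRNAs, fell in both pools. It was counted at 530, 441 and 412 CPM in scramble replicates 1, 2 and 3, at 63.0 and 57.7 CPM in pool 1, and at 54.6 and 61.6 CPM in pool 4. The groups did not overlap, and the pools' mean was 59.2 ± 3.79 CPM (SD, n = 4) against 461 ± 61.6 CPM (SD, n = 3). Its log2 fold change was −2.85 ± 0.05 (SE) without scramble replicate 1, a 7.19-fold fall (edgeR adjusted p = 1.05e-16), and −2.96 ± 0.12 with all libraries (edgeR adjusted p = 0.000368). Akt2, the paralogue that is prominent in insulin-responsive tissues, stood at 62.6, 58.3 and 53.6 CPM in scramble and 53.9 to 56.5 CPM in the pools. These ranges overlapped, and its difference of −0.01 without scramble replicate 1 did not pass (edgeR adjusted p = 0.845).

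Across genes, far more differences passed once scramble replicate 1 was set aside. A gene is said here to rise or fall when its edgeR adjusted p was below 0.05, with no minimum fold. With all 7 libraries 407 of 13744 genes passed, a background of 2.96%, of which 83 (0.604%) were higher in the pools and 324 (2.36%) lower. Without scramble replicate 1, 4787 of 13854 genes passed, a background of 34.6%, with 2114 (15.3%) higher and 2673 (19.3%) lower. All 407 genes of the first comparison passed in the second with the same direction. The second uses only libraries of the first, so this is not separate support. Most of the 4787 differences were small: 115 genes (0.83%) rose and 135 (0.974%) fell by more than 1 on the log2 scale. Each of the 4787 lay on the same side of scramble in pool 1 and in pool 4. They were called on both pools together, against the same scramble libraries, so this was largely fixed by the selection. Leaving out any pool library, or scramble replicate 2 or 3, lowered the first count to between 63 (without pool 1 replicate 2) and 215 (without scramble replicate 3), and the same step left the second at 4073 to 4713.

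**Figure D1:**
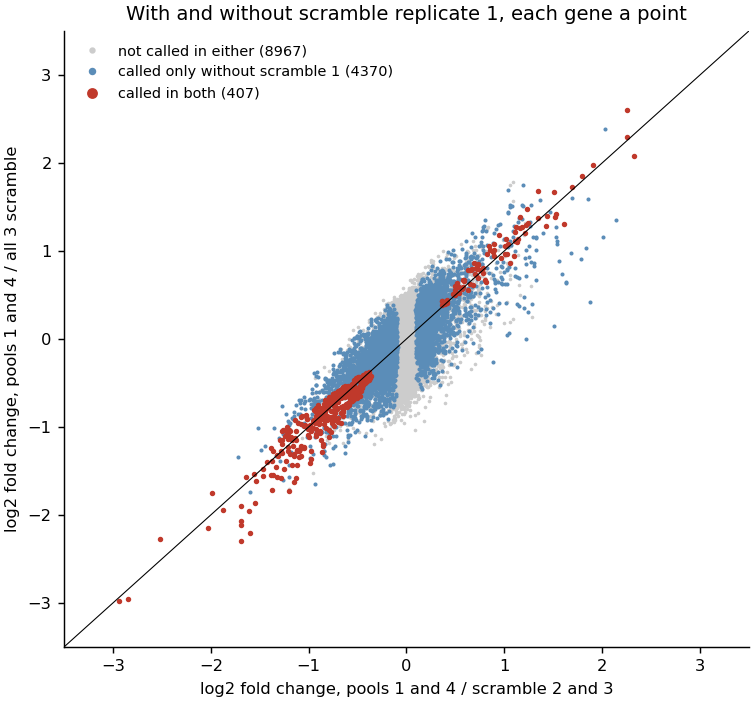
Each point is a gene tested in both comparisons; the axes give its log2 fold change of pools 1 and 4 over scramble replicates 2 and 3 (horizontal) and over all 3 scramble replicates (vertical), and the line marks equal values. The 407 genes that passed in both (red) lie in both directions, some of them off the line, such as Nme1 at −1.70 and −2.30. The 4370 that passed only without scramble replicate 1 are drawn in blue.

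Few genes passed between pools 1 and 4, each with only 2 libraries. With all 11 libraries in the fit, 0 of 14144 genes differed between them by edgeR, a background of 0%, with 85 (0.601%) at an unadjusted p below 0.05 and 2 called by DESeq2. Without scramble replicate 1 in the fit 523 genes were at an edgeR unadjusted p below 0.05. After adjustment 3 genes passed in that fit (0.0213% of those tested). All 3 are immediate early genes, which respond within minutes to growth factors and serum. Egr1, a zinc finger transcription factor, was counted at 35.05 and 30.8 CPM in pool 1 and at 69.0 and 71.2 CPM in pool 4, a difference of −1.09 ± 0.08 (edgeR adjusted p = 1.41e-07). Fos, an AP-1 subunit, was at 19.9 and 18.3 against 31.6 and 34.99 CPM (−0.80 ± 0.07, edgeR adjusted p = 6.28e-06). Ier2 differed by −0.36 ± 0.06 (edgeR adjusted p = 0.0353). For Egr1 the scramble libraries, at 34.3 to 39.8 CPM, lay near pool 1, so the mean of the pools describes neither pool for this gene.

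The largest falls after Akt1 were in 10 genes of varied function, which were picked among genes whose pool and scramble libraries did not overlap. Ei24, an endoplasmic reticulum membrane protein that is induced by p53, had 149, 130 and 131 CPM in scramble, 37.7 and 34.8 CPM in pool 1, and 34.0 and 35.8 CPM in pool 4. The pools kept about the same low level in all 4 libraries, a change of −1.87 ± 0.04 without scramble replicate 1 (edgeR adjusted p = 1.44e-14) and of −1.94 ± 0.09 with all libraries (edgeR adjusted p = 0.000508). Nme1, a nucleoside diphosphate kinase, stood at 413, 170 and 154 CPM in scramble and 48.3 to 51.4 CPM in the pools. Scramble replicate 1 was the highest library for it, and the fall was −1.70 ± 0.04 without that library and −2.30 ± 0.34 with it. Cdo1, cysteine dioxygenase of taurine synthesis, was at 78.7, 52.5 and 55.6 CPM in scramble and 16.2 to 17.4 CPM in the pools (−1.69 ± 0.05).

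The other 7 fell by −1.46 to −1.69 without scramble replicate 1, and with all libraries each also passed, at edgeR adjusted p = 0.00117 to 0.024. Pcbd1, a pterin dehydratase and HNF1 cofactor, changed by −1.69 ± 0.09 and Hebp1, a heme-binding protein, by −1.69 ± 0.12. Cldnd1, a claudin-like membrane protein, changed by −1.64 ± 0.04, from 181 to 220 CPM in scramble to 65.2 to 70.1 CPM in the pools. Myl12b, a regulatory light chain of nonmuscle myosin, had 139 to 257 CPM in scramble and 44.5 to 49.1 CPM in the pools. Aprt, which salvages adenine, stood at 178, 73.0 and 66.4 CPM in scramble and at 20.4 to 24.1 CPM in the pools. Eri3, of an exoribonuclease family, changed by −1.55 ± 0.06, and Slc35f2, a membrane transporter, by −1.46 ± 0.11. Myl12b, Nme1 and several interferon genes below have close paralogues, and reads shared between such genes cannot be separated in the deposited counts.

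The 9 largest rises described here split into interferon-induced genes, which varied more between the pool libraries, and others, which varied less. Among the others, Atg9b, a lipid scramblase of the autophagy family, had 3.72, 3.95 and 3.89 CPM in scramble and 9.87, 10.0, 10.1 and 9.96 CPM in the 4 pool libraries. Its 7 values formed 2 tight groups, and it rose by 1.35 ± 0.10 without scramble replicate 1 (edgeR adjusted p = 1.45e-08) and by 1.37 ± 0.09 with all libraries (edgeR adjusted p = 0.00196). Plac1, a trophoblast-expressed membrane protein, went from 5.10 to 7.12 CPM to 12.7 to 16.4 CPM (1.43 ± 0.11, and 1.28 ± 0.16 with all libraries, edgeR adjusted p = 0.0102). Ivl, which encodes the cornified envelope protein involucrin, rose by 1.61 ± 0.17, and Adgrg3, an adhesion G protein-coupled receptor, by 1.44 ± 0.18, both from under 4 CPM in each scramble library. Stmn4, a stathmin of microtubule dynamics, rose by 1.32 ± 0.11 without scramble replicate 1, and with it the difference of 1.01 did not pass (edgeR adjusted p = 0.0591).

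Rsad2, the antiviral enzyme viperin, had the largest rise of the 9. It stood at 1.996, 6.46 and 4.46 CPM in scramble, 22.1 and 36.8 CPM in pool 1, and 22.0 and 8.69 CPM in pool 4. Pool 4 replicate 2 lay nearest to scramble. The change was 2.03 ± 0.40 without scramble replicate 1 (edgeR adjusted p = 0.000726) and 2.39 ± 0.57 with all libraries, where it did not pass (edgeR adjusted p = 0.0803). Cmpk2, a mitochondrial nucleotide kinase induced by interferon, rose by 1.28 ± 0.30, Gbp7, a guanylate-binding protein, by 1.18 ± 0.19, and Apol9a, an apolipoprotein L family member, by 1.47 ± 0.27, all without scramble replicate 1. With all libraries these 3 had edgeR adjusted p = 0.109, 0.0936 and 0.0621.

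**Figure D2:**
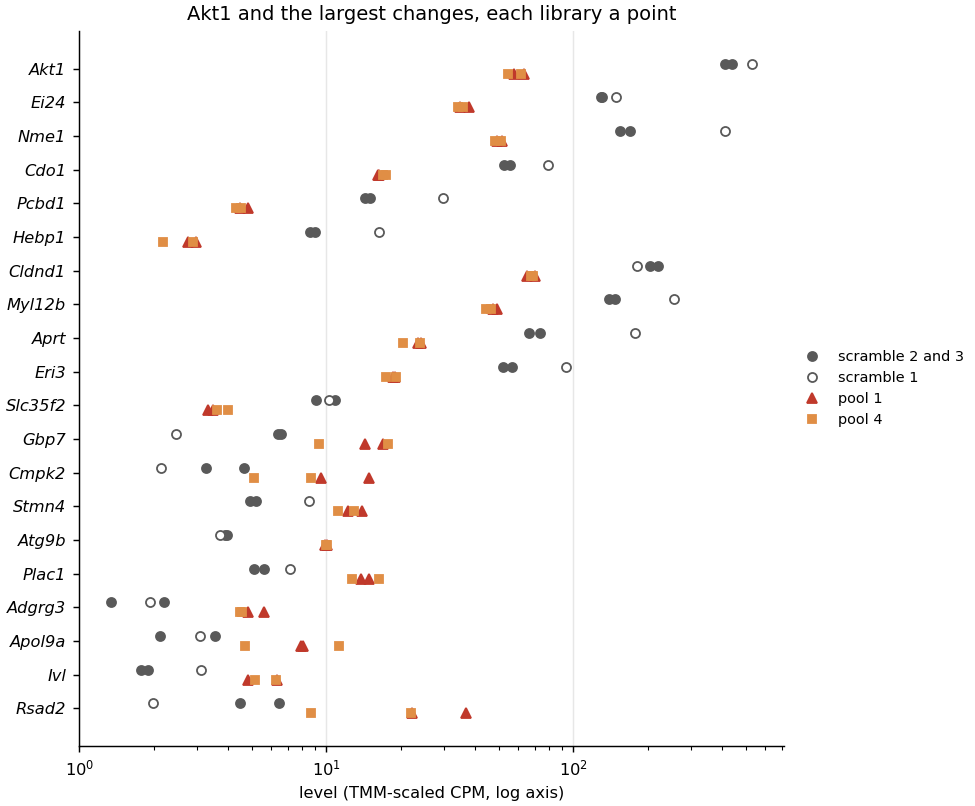
Levels in CPM (log axis) of Akt1, the 10 largest falls and 9 of the largest rises, with 1 point per library for scramble replicates 2 and 3 (filled circles), scramble replicate 1 (open circles), pool 1 (triangles) and pool 4 (squares). The falls and rises were picked among genes whose groups do not overlap. For Rsad2 a pool 4 library at 8.69 CPM lies apart from the other pool libraries at 22.0 to 36.8 CPM.

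Of 40 interferon-stimulated genes and RNA sensors, 21 rose without scramble replicate 1 and 0 with all libraries, and part of the list carried a binding motif in the promoter. Type I interferon acts through transcription factors that bind the interferon-stimulated response element. Its core, searched as GAAANNGAAA on both strands in the 250 bases before the RefSeq start, was found in 10 of 28 list genes with a promoter entry (35.7%). The share was 3.46% of all 27018 promoters and 3.1% of the 10533 tested genes with one. The list was drawn up from known interferon-stimulated genes, which may by itself raise its share. Among list genes that rose the share was 29.4% (5 of 17). The promoters of the 3 genes with the largest rises among these are shown (GRCm38.p6, 5′ to 3′ on the gene's strand, motif in capitals); a match is a description of the letters, not evidence of binding.
Rsad2, chr12:26456453-26456702, minus strand: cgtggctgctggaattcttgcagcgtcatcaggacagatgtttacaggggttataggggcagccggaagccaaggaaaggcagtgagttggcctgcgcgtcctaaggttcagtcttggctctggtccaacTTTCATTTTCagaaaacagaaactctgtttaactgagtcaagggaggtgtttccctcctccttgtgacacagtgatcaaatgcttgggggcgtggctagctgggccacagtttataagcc
Ifit3, chr19:34583279-34583528, plus strand: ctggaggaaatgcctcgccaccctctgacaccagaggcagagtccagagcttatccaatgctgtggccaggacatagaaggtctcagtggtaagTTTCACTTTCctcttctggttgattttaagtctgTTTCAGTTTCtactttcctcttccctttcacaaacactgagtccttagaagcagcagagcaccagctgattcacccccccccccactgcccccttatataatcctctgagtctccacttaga
Oas3, chr5:120777660-120777909, minus strand: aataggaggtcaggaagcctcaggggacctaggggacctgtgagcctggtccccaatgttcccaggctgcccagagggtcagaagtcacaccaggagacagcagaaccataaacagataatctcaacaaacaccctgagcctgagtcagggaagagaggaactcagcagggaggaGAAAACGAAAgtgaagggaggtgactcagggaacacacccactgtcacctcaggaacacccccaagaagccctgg

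The 21 that rose without scramble replicate 1, with 0 that fell, stand against backgrounds of 15.3% and 19.3%. The list's median was 0.53 against 0.00 for all genes. With all libraries 0 passed by edgeR, with a median of 0.66; 22 were higher and 0 lower at an unadjusted p below 0.05, and DESeq2 called 12 higher and 0 lower. In 11 members the 7 libraries did not overlap and the pools were higher, where 13.4% of all genes tested did so. Rtp4, a receptor transporter protein with antiviral action, had 4.79, 6.38 and 4.33 CPM in scramble, 13.5 and 13.8 CPM in pool 1, and 19.4 and 5.25 CPM in pool 4. Ifit3, another interferon-stimulated gene, had 1.82 to 2.85 CPM in scramble. It had 5.98 and 8.67 CPM in pool 1, and 5.39 and 2.39 CPM in pool 4. For both genes pool 4 replicate 2 fell within the scramble range. The RNA sensors Ifih1 and Tlr3 rose by 0.61 ± 0.15 and 0.69 ± 0.15, and Oas3, an RNA-activated synthetase, by 1.20 ± 0.34.

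Over the list, the median difference from the mean of scramble replicates 2 and 3 was 0.64 and 0.62 in the pool 1 libraries, 0.84 in pool 4 replicate 1 and 0.06 in pool 4 replicate 2. Scramble replicate 1 was at −0.48, below the other controls at 0.14 and −0.14. The number of members that rose was 32 without pool 4 replicate 2, 24 without scramble replicate 2 and 7 without scramble replicate 3, and 11 by DESeq2. Several members belong to families of near-identical genes, and their single values are uncertain for that reason. Ifit3, Ifih1, Tlr3 and Oas3 were named after their values were seen, as were all list members below beyond the 3 with the largest changes in each list. Values of list members are from the comparison without scramble replicate 1 unless another is stated. The list counts against scramble below stand beside all-gene shares of 15.3% higher and 19.3% lower without that library. With all libraries these shares were 0.604% and 2.36%.

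Actin cytoskeleton and SRF target genes were lower in the pools, 27 of 32 without scramble replicate 1. Serum response factor (SRF) and its actin-sensing coactivator MKL1 drive genes of the contractile apparatus through the CArG box. That motif was found on either strand of the same 250 bases in 9 of 26 list genes with a promoter entry (34.6%), against 1.62% of all promoters and 1.42% of tested genes, and in 7 of 24 that fell or rose (29.2%). The promoters of the 3 genes with the largest falls among them are shown with the box in capitals. The CArG box reads the same way on both strands and was counted once, and the list was in part drawn up from known SRF targets.
Acta1, chr8:123894776-123895025, minus strand: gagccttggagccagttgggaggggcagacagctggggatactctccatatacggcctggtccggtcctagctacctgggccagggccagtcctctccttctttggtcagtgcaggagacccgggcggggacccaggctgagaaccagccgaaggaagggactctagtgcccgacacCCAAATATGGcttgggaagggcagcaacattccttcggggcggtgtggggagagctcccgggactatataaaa
Srf, chr17:46556163-46556412, minus strand: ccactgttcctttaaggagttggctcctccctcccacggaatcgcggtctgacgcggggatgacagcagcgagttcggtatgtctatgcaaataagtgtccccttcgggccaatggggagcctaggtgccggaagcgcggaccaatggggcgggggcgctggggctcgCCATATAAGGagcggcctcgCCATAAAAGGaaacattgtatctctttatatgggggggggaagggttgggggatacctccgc
Myl9, chr2:156775214-156775463, plus strand: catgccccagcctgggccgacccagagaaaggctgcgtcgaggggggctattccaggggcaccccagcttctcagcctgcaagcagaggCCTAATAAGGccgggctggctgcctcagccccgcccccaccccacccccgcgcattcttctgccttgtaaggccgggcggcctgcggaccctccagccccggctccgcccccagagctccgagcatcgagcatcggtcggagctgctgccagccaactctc

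Without scramble replicate 1, 27 of 32 members fell and 2 rose, Tagln2 and Actn1, and the median was −0.47. With all libraries 8 fell and 0 rose, with a median of −0.57. In 21 members all 4 pool libraries lay below all 3 scramble libraries, where 14% of all genes did so. Srf itself had 87.5, 76.0 and 72.4 CPM in scramble, 38.1 and 36.9 CPM in pool 1, and 35.5 and 36.8 CPM in pool 4. These are 2 separate groups, with a change of −1.01 ± 0.05 without scramble replicate 1 (edgeR adjusted p = 2.82e-11) and −1.09 ± 0.09 with all libraries (edgeR adjusted p = 0.00252). Tgfb1i1, the focal adhesion protein Hic-5, had 164, 139 and 122 CPM in scramble and 54.7 to 58.8 CPM in the pools (−1.19 ± 0.05). Acta1, skeletal alpha-actin, was scarce at 2.03 to 3.01 CPM in scramble and 0.724 to 1.52 CPM in the pools (−1.18 ± 0.24), and did not pass with all libraries (edgeR adjusted p = 0.0545).

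Among other members, Acta2, smooth muscle alpha-actin, changed by −0.77 ± 0.06, Myl9, the smooth muscle myosin light chain, by −0.87 ± 0.05, Vcl, vinculin of focal adhesions, by −0.49 ± 0.03, and Actb, beta-actin, by −0.32 ± 0.04. Mkl1 changed by −0.59 ± 0.06, from 85.6 to 123 CPM in scramble to 72.2 to 82.4 CPM in the pools. By library the list's median was −0.41 to −0.51 in the 4 pool libraries, 0.06 and −0.06 in scramble replicates 2 and 3, and 0.28 in scramble replicate 1. With all libraries and a correction for transcript length 20 members fell and 1 rose. Vcl, with 520 CPM in scramble replicate 1 against 1055 and 1071 CPM in the others, is a member whose fall did not pass with all libraries (−0.22, edgeR adjusted p = 0.583).

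**Figure D3:**
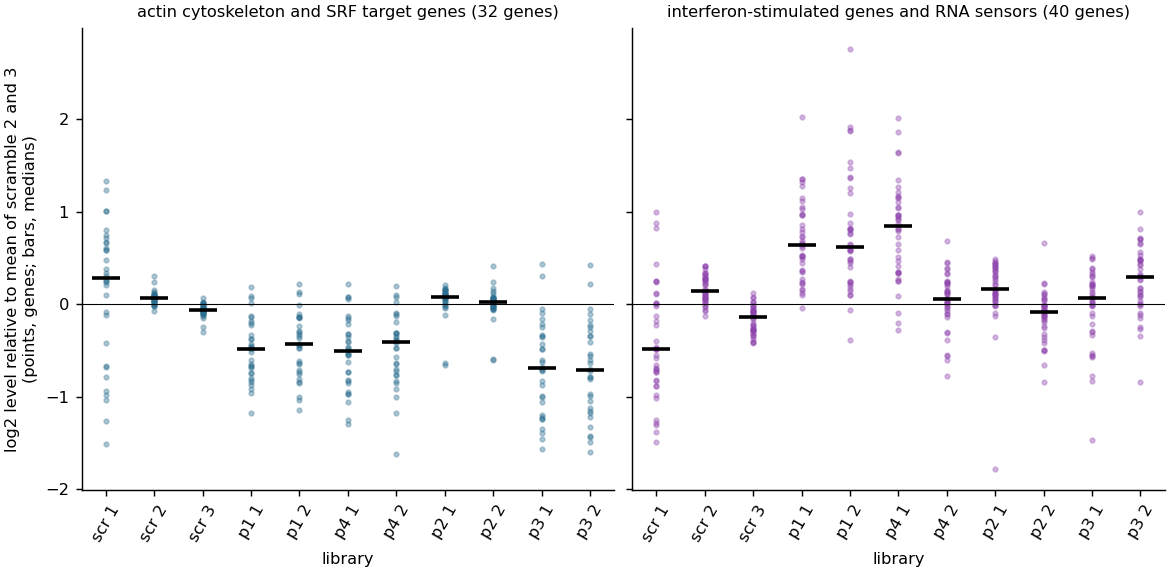
Each point is a gene's log2 level in 1 library relative to the mean of scramble replicates 2 and 3, for the actin and SRF list (left) and the interferon list (right), with bars at the medians; scr is scramble and p1 to p4 the pools. The actin list sits below 0 in the 4 libraries of pools 1 and 4 (medians −0.41 to −0.51), while the interferon list is raised in 3 of them and at 0.06 in pool 4 replicate 2.

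Granulosa identity genes were lower in the pools. Without scramble replicate 1, 15 of 22 members fell and 1 rose, Amhr2, and the median was −0.42. With all libraries 5 fell and 0 rose. Serpine2, an inhibitor of plasminogen activators and thrombin, had 1556, 1382 and 1327 CPM in scramble and 608 to 744 CPM in the pools (−0.98 ± 0.05, edgeR adjusted p = 3.95e-10). Fst, the activin antagonist follistatin, had 65.9, 63.6 and 58.5 CPM in scramble and 28.1 to 35.4 CPM in the pools (−0.91 ± 0.07, edgeR adjusted p = 2.37e-08). Both held with all libraries, at edgeR adjusted p = 0.006 and 0.00754. Foxl2 did not pass (0.00 ± 0.05, edgeR adjusted p = 0.999).

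Inhibin and activin subunits changed without scramble replicate 1, Inha by −0.42 ± 0.04, Inhba by −0.47 ± 0.04 and Inhbb by −0.62 ± 0.04. With all libraries Inhbb passed (edgeR adjusted p = 0.00906) and Inha, at −0.65 ± 0.17, did not (edgeR adjusted p = 0.105). Inhba had 20.2 CPM in scramble replicate 1 and 468 and 478 CPM in the other 2, with 322 to 356 CPM in the pools between them, and so its call rests on leaving that library out (0.09 with all libraries, edgeR adjusted p = 0.954). The summed level of the list was 7108 to 7500 CPM in the pools and 8815 to 9892 CPM in scramble. In bulk libraries, fewer cells of a type and less RNA per cell cannot be told apart.

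Genes of steroid synthesis moved the same way by smaller amounts. Of 20 members 10 fell and 3 rose without scramble replicate 1 (median −0.18), and 2 fell with all libraries, Hsd17b1 and Nr5a1. Hsd17b1, which converts estrone to estradiol, had 136, 88.3 and 85.4 CPM in scramble and 46.8 to 58.2 CPM in the pools (−0.74 ± 0.06, edgeR adjusted p = 5.75e-08). Nr5a1, the steroidogenic factor SF-1, changed by −0.43 ± 0.05 and Fdx1, the electron donor of mitochondrial steroid hydroxylases, by −0.37 ± 0.04. Cyp11a1, which makes pregnenolone from cholesterol, changed by −0.20 ± 0.04, while Star, which carries cholesterol into mitochondria, rose by 0.13 ± 0.04 with 565 to 578 CPM in the pools and 453 to 539 CPM in scramble.

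More lipid synthesis genes fell than rose without scramble replicate 1, and 1 passed with it. In cholesterol synthesis 13 of 25 fell and 1, Dhcr7, rose, with a median of −0.12, and with all libraries 0 passed by edgeR (1 higher and 6 lower at an unadjusted p below 0.05, and 3 lower by DESeq2). Mvd, mevalonate decarboxylase, had 95.6, 63.8 and 50.5 CPM in scramble and 40.3 to 47.1 CPM in the pools. The groups did not overlap, and the change was −0.41 ± 0.08 without scramble replicate 1 and −0.71 with it (edgeR adjusted p = 0.134). The number that fell was 7 without scramble replicate 2. In fatty acid synthesis 9 of 17 fell and 1 rose. Elovl5, a fatty acid elongase, had 148 to 193 CPM in scramble and 111 to 122 CPM in the pools (−0.70 ± 0.04), and it alone of this list passed with all libraries (edgeR adjusted p = 0.0378).

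More ovulatory genes fell than rose without scramble replicate 1, with a median of −0.14. Ptx3, pentraxin 3 of the cumulus matrix, had 11.7, 8.66 and 8.65 CPM in scramble and 17.3, 17.4, 18.9 and 20.8 CPM in the pools. All 4 pool values exceeded the scramble ones, and it rose by 1.10 ± 0.09 without scramble replicate 1 and by 0.94 ± 0.15 with it (edgeR adjusted p = 0.0245). Btc, the EGF-like ligand betacellulin, had 17.6, 25.1 and 26.7 CPM in scramble and 12.4 to 13.2 CPM in the pools (−1.03 ± 0.06), and fell with all libraries too (edgeR adjusted p = 0.03). Of 23 members 2 rose and 8 fell without scramble replicate 1, where 15.3% and 19.3% of all genes did. With all libraries 1 rose, Ptx3, and 1 fell, Btc.

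Of 35 genes of the PI3K, AKT and mTORC1 pathway, Akt1 among them, 7 rose and 13 fell without scramble replicate 1 (median −0.05), against backgrounds of 15.3% and 19.3%, and with all libraries Akt1 fell and Pik3ip1 rose. Pik3ip1, an inhibitor of PI3K, had 18.6, 14.2 and 14.8 CPM in scramble and 24.8 to 25.7 CPM in the pools. The groups were apart, with a rise of 0.81 ± 0.06 without scramble replicate 1 (edgeR adjusted p = 2.63e-08) and 0.67 ± 0.12 with it (edgeR adjusted p = 0.0325). Sgk3, an AKT-related kinase, changed by −0.53 ± 0.13, and Gsk3b and Mtor each by −0.17 ± 0.04.

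FOXO factors and genes they induce showed no common direction, with 7 of 26 higher and 6 lower without scramble replicate 1, and 1 higher and 3 lower with all libraries. Of all genes 15.3% were higher and 19.3% lower without that library. Foxo1, the main FOXO factor of granulosa cells, had 37.4, 60.8 and 58.7 CPM in scramble and 32.5 to 37.0 CPM in the pools (−0.80 ± 0.05, edgeR adjusted p = 3.65e-09), and did not pass with all libraries (edgeR adjusted p = 0.123). Foxo6 had 29.2 to 37.9 CPM in scramble and 16.01 to 17.97 CPM in the pools (−0.84 ± 0.06) and passed in both. Of induced genes, Pik3ip1 rose as above, while Ddit4 and Sesn1, both brakes on mTORC1, changed by −0.41 and −0.54.

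Most genes of protein folding and amino acid supply fell without scramble replicate 1. In the unfolded protein response list 19 of 26 fell and 1, the sensor Atf6, rose without scramble replicate 1 (median −0.18), and 1 fell with all libraries. That gene was Pdia4, a protein disulfide isomerase, at 483, 519 and 544 CPM in scramble and 271 to 306 CPM in the pools (−0.89 ± 0.04, edgeR adjusted p = 4.64e-11). Hyou1, a large ER chaperone, changed by −0.59 ± 0.03, and the chaperone Hspa5 by −0.14 ± 0.04. In the ATF4 list 15 of 26 fell and 3 rose (1 rose without either pool 4 library as well), and with all libraries 3 fell and 0 rose. Sesn2, a leucine sensor, had 32.0, 56.6 and 54.1 CPM in scramble and 21.6 to 25.0 CPM in the pools (−1.27 ± 0.06), and Slc7a5, the large neutral amino acid transporter, changed by −0.91 ± 0.04. Gdf15, a stress cytokine, rose by 0.85 ± 0.16 without scramble replicate 1, although that library had the highest level at 5.96 CPM. Dars, aspartyl-tRNA synthetase, had 117, 118 and 122 CPM in scramble and 47.7 to 50.1 CPM in the pools (−1.28 ± 0.04). Of the other 19 synthetases 1 rose and 2 fell without scramble replicate 1, with a median of −0.02 over the 20 (3 rose without scramble replicate 3 as well). With all libraries Dars alone of the 20 passed.

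Of 30 mitosis genes 14 rose and 2 fell without scramble replicate 1, with a median of 0.11. Without pool 4 replicate 2 as well 9 rose, and without scramble replicate 2 as well 4 fell. With all libraries 0 passed by edgeR, 5 were higher and 2 lower at an unadjusted p below 0.05, and DESeq2 called 2 higher and 1 lower. Hmmr, a spindle protein, rose by 0.28 ± 0.05 and Aurka, a spindle-pole kinase, changed by −0.29 ± 0.04. With all libraries Hmmr was at 0.51 (edgeR adjusted p = 0.25) and Aurka at −0.49 (edgeR adjusted p = 0.135). Among 37 replication and G1/S genes 9 rose and 7 fell without scramble replicate 1, and 0 rose and 1 fell with all libraries. The shares of all genes without that library were 15.3% and 19.3%. E2f2, a G1/S transcription factor, had 14.8 to 15.7 CPM in scramble and 7.64 to 9.17 CPM in the pools (−0.84 ± 0.08) and passed in both. Ccnd2, the cyclin D of granulosa cells, had 373, 1043 and 996 CPM in scramble and 1255 to 1281 CPM in the pools, a rise of 0.32 ± 0.03 without scramble replicate 1 only.

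Of 25 immediate early genes 8 rose and 2 fell without scramble replicate 1, with a median of 0.18 (1 fell without scramble replicate 2 as well). The median was 0.06 in pool 1 and 0.28 in pool 4, and with all libraries 2 rose and 0 fell. Dusp1, a phosphatase that turns off MAP kinases, had 64.0, 66.9 and 53.1 CPM in scramble and 94.3 to 110 CPM in the pools (0.78 ± 0.07), and Btg2, an antiproliferative gene, rose by 0.57 ± 0.05. These were the 2 that passed with all libraries, at edgeR adjusted p = 0.0199 and 0.0251. Of 24 p53 targets 9 rose and 5 fell without scramble replicate 1, and 1 rose and 3 fell with all libraries, with Ei24 and Sesn2 the largest falls. Among 24 BCL2 family and caspase genes 8 rose and 5 fell without scramble replicate 1, and 0 rose and 1 fell with all libraries. Beside both lists, 15.3% of all genes rose and 19.3% fell without that library. The proapoptotic Bok and Bak1 changed by −0.73 ± 0.06 and −0.56 ± 0.05 and the antiapoptotic Bcl2 rose by 0.44 ± 0.06, while Bax, proapoptotic, rose by 0.24 ± 0.05. Bak1 was the 1 that passed with all libraries (edgeR adjusted p = 0.0178).

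Matrix genes were lower without scramble replicate 1, with 24 of 40 down and 4 up and a median of −0.14, and 0 passed by edgeR with all libraries, where the median was 0.03 (1 higher and 3 lower at an unadjusted p below 0.05, and 1 lower by DESeq2). Their long transcripts were low in scramble replicate 1, by a median of −0.77 relative to the other scramble libraries. Itga1, a collagen-binding integrin, had 12.7, 28.4 and 26.8 CPM in scramble and 11.9 to 14.0 CPM in the pools, so that scramble replicate 1 lay among the pools (−1.08 ± 0.07 without it, −0.79 with it, edgeR adjusted p = 0.18). Lama1 and Lamc1, laminin chains of basement membrane, changed by −0.59 ± 0.03 and −0.52 ± 0.03. Among proteases and inhibitors 5 of 25 rose and 9 fell without scramble replicate 1, where 15.3% and 19.3% of all genes did. With all libraries 1 rose and 1 fell. Mmp2, a gelatinase, rose by 0.37 ± 0.04 and passed with all libraries too (edgeR adjusted p = 0.0423), and Ctsl, cathepsin L, changed by −0.44 ± 0.04.

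In BMP, TGF-beta and AMH signalling 14 of 35 fell and 7 rose without scramble replicate 1, and 1 fell and 0 rose with all libraries. The receptors Acvr1b and Bmpr1b changed by −0.82 ± 0.08 and −0.68 ± 0.05 without scramble replicate 1 only. Of 20 insulin and IGF genes 3 rose and 5 fell without scramble replicate 1, where 15.3% and 19.3% of all genes did. With all libraries 1 fell, Igfbp3. Igfbp3, an IGF carrier, had 10.9 to 15.8 CPM in scramble and 6.64 to 7.75 CPM in the pools (−0.81 ± 0.11). In the Hippo list 4 of 22 rose and 6 fell without scramble replicate 1, beside the same 15.3% and 19.3% of all genes. Ctgf, a YAP target, had 971, 909 and 776 CPM in scramble and 1263 to 1354 CPM in the pools. It rose by 0.63 ± 0.05 and was the only member to pass with all libraries (edgeR adjusted p = 0.0421).

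Of 32 lysosome and autophagy genes 10 fell and 5 rose without scramble replicate 1 (3 rose without pool 4 replicate 1 as well), and 1 fell with all libraries. Among all genes 19.3% fell and 15.3% rose without scramble replicate 1. Atg5, needed to lipidate LC3, had 46.5, 41.3 and 41.2 CPM in scramble and 17.0 to 18.8 CPM in the pools (−1.21 ± 0.06, edgeR adjusted p = 3.01e-11), and fell with all libraries (edgeR adjusted p = 0.00196). Ulk1, the kinase that starts autophagy, changed by −0.50 ± 0.04 (−0.31 with all libraries, edgeR adjusted p = 0.353) and Atg7 by −0.49 ± 0.08. In the glycolysis and hypoxia list 11 of 29 fell and 0 rose without scramble replicate 1. Slc16a1, a lactate and pyruvate transporter, had 84.97 to 94.98 CPM in scramble and 51.7 to 56.5 CPM in the pools (−0.73 ± 0.05), and Hk1, hexokinase 1, changed by −0.52 ± 0.04. These were the 2 that passed with all libraries.

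Lists of short-transcript genes moved with scramble replicate 1. Ribosomal protein genes were higher in that library than in the other scramble libraries by a median of 1.15 and oxidative phosphorylation genes by 0.97. Their medians in the comparison were −0.55 and −0.46 with all libraries, against 0.02 and −0.04 without that library, and 0 members of either passed with all libraries by edgeR, with 0 ribosomal and 2 oxidative phosphorylation genes at an unadjusted p below 0.05 and 0 and 1 by DESeq2. Without it 2 of 30 ribosomal genes rose, Rpl5 and Rpl23, and of 30 oxidative phosphorylation genes 2 rose and 3 fell (7 fell without scramble replicate 3 and 1 without scramble replicate 2 as well). Sdhc, a succinate dehydrogenase subunit, had 152, 102 and 90.7 CPM in scramble and 65.5 to 69.1 CPM in the pools (−0.50 ± 0.05). In the RNA interference machinery, which the siRNAs use, 3 of 13 rose and 4 fell without scramble replicate 1, where 15.3% and 19.3% of all genes did. With all libraries 0 passed by edgeR (0 at an unadjusted p below 0.05 and 0 by DESeq2). Ago2, the slicing Argonaute, rose by 0.17, and Ago3 changed by −0.46 ± 0.05 with 4.67 CPM in scramble replicate 1 against 39.3 and 42.3 CPM in the others.

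Markers of other ovarian cell types were checked as lists, and their part in the results above was not tested. Several macrophage and oocyte genes were at or near 0: Ptprc had at most 1 read per library, Adgre1 at most 3, Zp2 at most 1, and Figla had 0. Others were detected, with 86 to 189 reads for Cd68, 23 to 49 for Cd14, 8 to 34 for Lyz2 and 19 to 53 for the oocyte gene Gdf9. Summed macrophage markers were 7.97 to 9.71 CPM in the pools and 7.44 to 11.2 CPM in scramble, and endothelial markers 45.9 to 52.4 and 42.9 to 48.7 CPM. Of the endothelial genes Vwf, Tie1 and Cldn5 had no more than 2 reads and Erg 0, while Eng had 617 to 963 and Emcn 137 to 321. The counts of these marker lists are without scramble replicate 1 unless stated, where 15.3% of all genes rose and 19.3% fell. Of the endothelial genes 2 of 8 rose, Tek and Kdr, and of the leukocyte genes 1 of 5, Csf1r, all below 8 CPM; 1 endothelial gene rose with a further scramble or pool 1 library left out, and 2 leukocyte genes without scramble replicate 3. Oocyte markers summed to 3.88 to 5.57 CPM in the pools and 7.01 to 9.49 CPM in scramble, and Ddx4, a germ cell helicase, was the 1 of 3 that fell (−0.84 ± 0.16). With all libraries 0 genes of these lists passed by edgeR: at an unadjusted p below 0.05 there were 2 higher endothelial genes, 1 higher and 1 lower leukocyte gene and 1 lower oocyte gene, and DESeq2 called 1, 0 and 1.

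Theca and stroma markers summed to 4279 to 4448 CPM in the pools and 5182 to 6024 CPM in scramble, most of it Acta2 and collagens that other lists hold too, and 6 of 16 fell and 2 rose (0 rose without scramble replicate 2 as well), and with all libraries 1 fell, Acta2. The defining theca genes Cyp17a1 and Insl3 had at most 15 reads and 1 read. Surface epithelium markers summed to 399 to 409 CPM in the pools and 384 to 687 CPM in scramble, where Upk3b changed by −0.46 ± 0.04. Of 10 of them 2 rose and 3 fell, and with all libraries 0 passed by edgeR (4 lower at an unadjusted p below 0.05, and 2 lower by DESeq2). Of 11 Sertoli and testis genes 7 fell and 1 rose, and 2 fell with all libraries. Cyp26b1, which degrades retinoic acid, had 130, 240 and 212 CPM in scramble and 114 to 122 CPM in the pools (−0.96 ± 0.05).

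**Figure D4:**
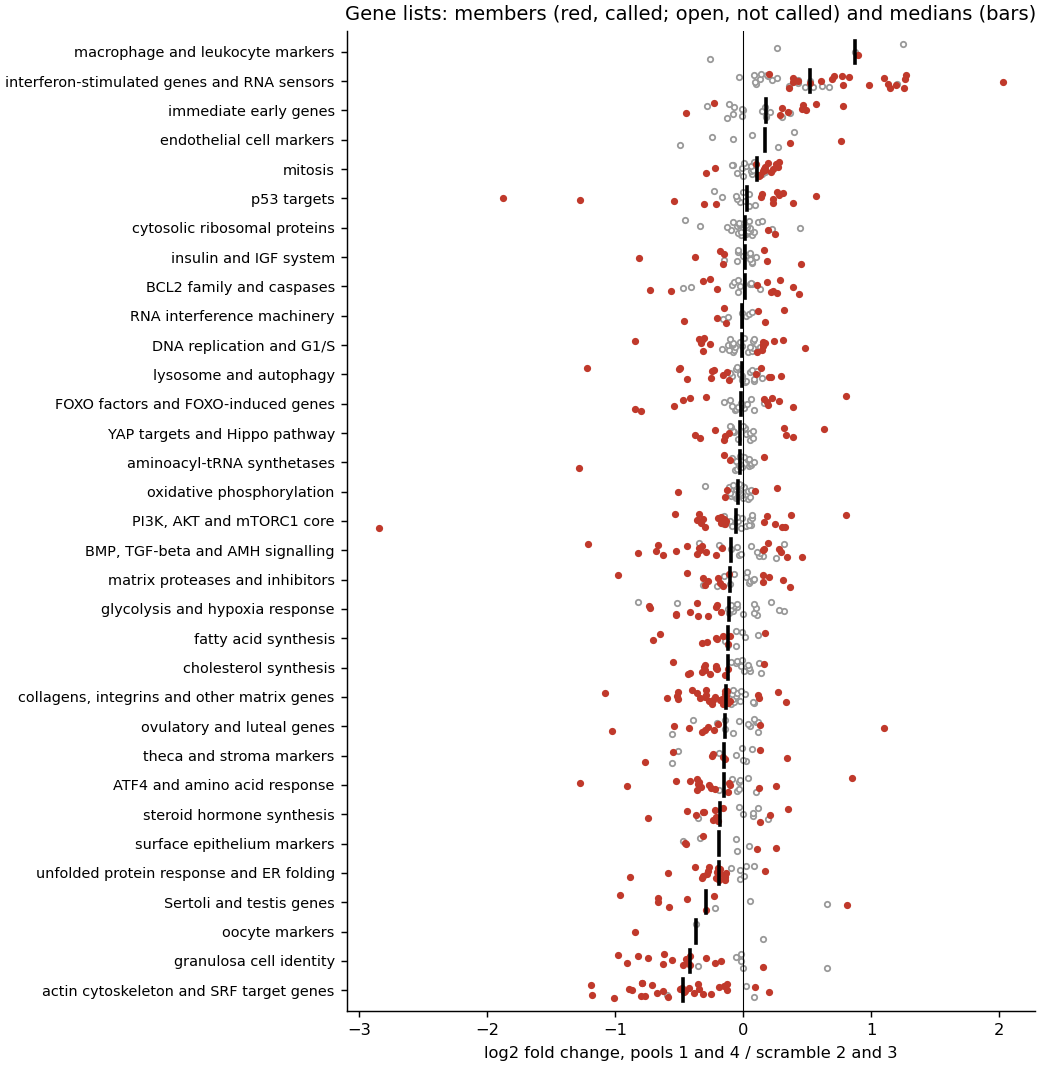
Log2 fold changes of pools 1 and 4 over scramble replicates 2 and 3 for the members of each gene list (red, passed the edgeR test; open, did not), with a bar at each list's median. The actin and SRF list (median −0.47) and the granulosa list (−0.42) have low medians and the interferon list (0.53) a high one, while the macrophage list rests on only 5 tested members.

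Pools 1 and 4 also differed from pools 2 and 3. Pool 2 held siRNAs 6, 8 and 9, so it lacked siRNA 7, which pools 1 and 4 share, and it held 6 and 9 together. These cannot be told apart by the comparison with pool 2 alone. Pool 3 also held 6 and 9 together, with siRNA 7, and lacked siRNA 8. Akt1 was at 53.8 and 56.3 CPM in pool 2 and at 77.3 and 79.6 CPM in pool 3, against 54.6 to 63.0 CPM in pools 1 and 4. Its difference from pool 2 did not pass without scramble replicate 1 in the fit (0.11 ± 0.05, edgeR adjusted p = 0.121) or with it (0.11 ± 0.12, edgeR adjusted p = 0.969). Its difference from pool 3 passed without scramble replicate 1 (−0.40 ± 0.05, edgeR adjusted p = 5.39e-06) and did not with all libraries in the fit (−0.41 ± 0.12, edgeR adjusted p = 0.378).

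With all 11 libraries in the fit, 307 of 14144 genes differed from pool 2 (2.17%), 53 higher (0.375%) and 254 lower (1.8%). Without scramble replicate 1, which is in neither group but enters the estimate of spread, 4720 of 14062 did (33.6%), 2073 higher (14.7%) and 2647 lower (18.8%). With scramble replicate 1 in the fit and 1 library of the groups compared left out, 42 to 119 genes differed. Ei24 had 143 and 138 CPM in pool 2, near scramble, and 34.0 to 37.7 CPM in pools 1 and 4 (−1.98 ± 0.04, edgeR adjusted p = 2.18e-18). Plac1 had 4.12 and 3.76 CPM in pool 2, below scramble, and 12.7 to 16.4 CPM in pools 1 and 4 (1.87 ± 0.11). The 19 genes with large changes described above all differed from pool 2 without scramble replicate 1 in the fit, at edgeR adjusted p = 0.00205 or less. With all libraries in the fit 12 of the 19 passed and 7 did not: Hebp1, Nme1, Aprt, Cmpk2, Rsad2, Apol9a and Gbp7, at edgeR adjusted p = 0.0526 to 0.451. Against scramble replicates 2 and 3, the 10 largest falls were −0.36 to 0.13 in pool 2 and at or below −1.67 in pool 3. Which siRNA they go with was not tested. These comparisons share the scramble libraries or the libraries of pools 1 and 4, so the values are set side by side only.

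Of the lists, the actin genes differed most from pool 2, with 28 of 32 lower and 1 higher without scramble replicate 1 in the fit and 6 lower with it. In the granulosa list 15 of 22 were lower and 1 higher, and in the interferon list 23 of 40 were higher and 0 lower. Of all genes 14.7% were higher and 18.8% lower in that fit. With all libraries in the fit 3 granulosa genes were lower and 0 higher, and 0 interferon genes passed. Cholesterol synthesis genes went the other way from their comparison with scramble: 15 of 25 were higher in pools 1 and 4 than in pool 2 and 0 lower. With all libraries in the fit 2 were higher and 0 lower. Against scramble replicates 2 and 3 that list had a median of −0.38 in pool 2 and −0.12 in each of pools 1 and 4.

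From pool 3, 2 of 14144 genes differed with all libraries in the fit (0.0141%), Atg9b and P2rx4, both lower in pools 1 and 4, with 1041 (7.36%) at an unadjusted p below 0.05 and 193 called by DESeq2; with any 1 library of the groups compared left out 0 differed. Without scramble replicate 1, 3469 of 14062 differed (24.7%), 2015 higher (14.3%) and 1454 lower (10.3%). P2rx4 (ENSMUSG00000029470.15, mm10 chr5:122707544-122729738, plus strand), an ATP-gated ion channel, had 33.1, 28.8 and 25.3 CPM in scramble and 12.9 to 15.5 CPM in pools 1 and 4. It had 13.2 and 13.3 CPM in pool 2 and 31.9 and 32.6 CPM in pool 3. Pool 3 was thus the 1 pool at the scramble level, and the difference of pools 1 and 4 from it was −1.17 ± 0.07 (edgeR adjusted p = 3.24e-10 without scramble replicate 1 in the fit, 0.046 with it).

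Atg9b had 22.1 and 20.8 CPM in pool 3, above the 9.87 to 10.1 CPM of pools 1 and 4, and 3.49 and 4.17 CPM in pool 2, at the scramble level. Ivl, Adgrg3, Plac1 and Stmn4 also stood lower in pools 1 and 4 than in pool 3, at log2 differences of −0.66 to −1.05, while Rsad2 and Cmpk2 stood higher, at 1.19 ± 0.25 and 0.88 ± 0.20. For Rsad2 pool 3 had 7.56 and 10.8 CPM. In the list counts without scramble replicate 1 in the fit, 16 of 22 granulosa genes and 20 of 32 actin genes were higher in pools 1 and 4 than in pool 3, with 1 and 2 lower. Of 30 mitosis genes 26 were lower and 0 higher, and of 40 interferon genes 18 were higher and 0 lower. Of all genes 14.3% were higher and 10.3% lower in that fit. With all libraries in the fit 0 members of these lists differed from pool 3. The median of the actin list against scramble replicates 2 and 3 was −0.47 in each of pools 1 and 4, 0.05 in pool 2 and −0.70 in pool 3.

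**Figure D5:**
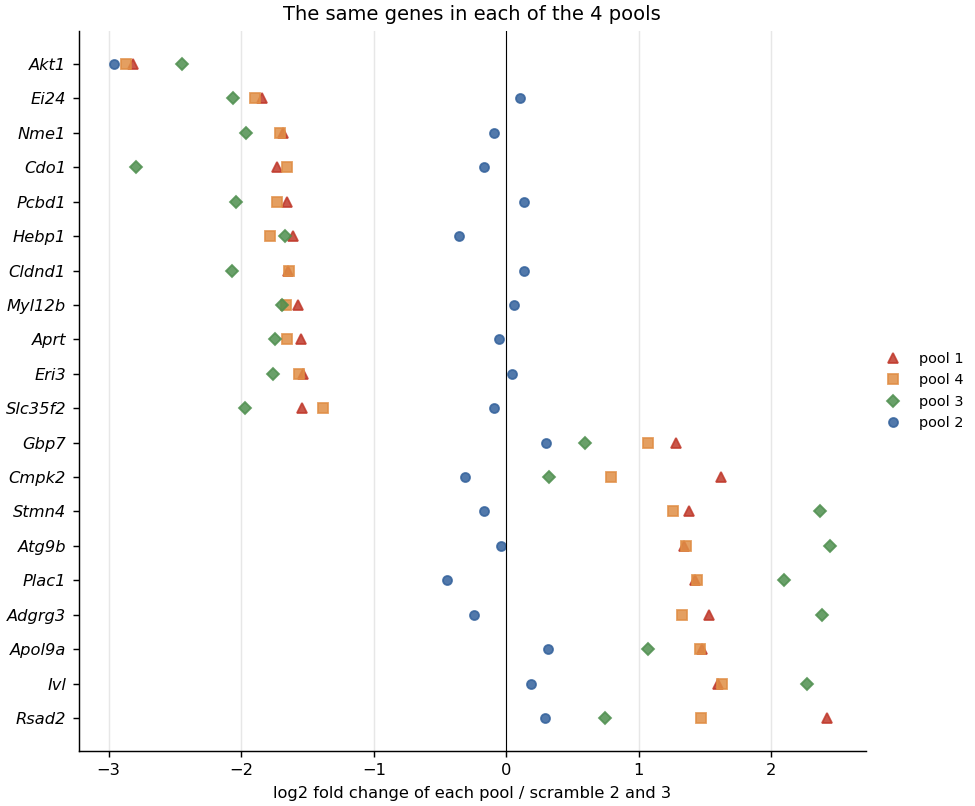
Log2 fold changes of each pool over scramble replicates 2 and 3 for Akt1, the 10 largest falls and 9 of the largest rises of pools 1 and 4, with 1 point per pool. Akt1 is low in all 4 pools, the 10 falls lie at −0.36 to 0.13 in pool 2 and at or below −1.67 in pool 3, and pools 1 and 4 lie near each other except for Rsad2 (2.42 and 1.47) and Cmpk2 (1.62 and 0.79).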

How the data were processed

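Whole-number read counts per gene symbol were deposited for each library and are used as the authors made them, not normalized. Per the labels' protocols, a stranded mRNA kit was used on 1.3 µg of RNA and reads were single, of 75 bases. The submitters' processing notes list mm10, TopHat2, featureCounts 1.5.0-p2 and DESeq2, with cutadapt 1.9.1, FastQC 0.11.5 and bcl2fastq 2.15.0; no source used here gives the strand setting of the counting. The 92 ERCC spike-in lines (0.299% to 0.788% of counts) were dropped before scaling, leaving 24490 genes.

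Tests on these counts used edgeR 4.0.16 (R 4.3.3): TMM scaling, the filterByExpr filter, the two-sided quasi-likelihood F test and Benjamini-Hochberg adjustment over all genes tested, with calls below 0.05. Pools 1 and 4 against scramble used 2 groups; comparisons between pools used 1 fit of 5 groups, whose estimate of spread all libraries share. Standard errors are the fold change over the square root of F. The members, gene lists and tests were chosen with earlier results of these data known. Named genes are Akt1, Akt2, the 10 largest changes in each direction where the 7 libraries did not overlap and log2 CPM averaged 2 or more, the 3 largest called members of each list, and the largest called differences between pools; pseudogenes, predicted and mitochondrial genes were not named, and some genes the rule picks are not reported here. Lists are described by counts and medians, with no test of the list. Transcript lengths and coordinates are from GENCODE M21, promoters from RefSeq GRCm38.p6. Alternatives were RLE scaling, other filters, DESeq2 1.42.0, limma 3.58.1 (voom, with and without sample weights), other groupings, a correction for transcript length, a replicate block and leaving out each library. The fits were tested on simulated data in which no library had a length bias or stood apart. That test therefore does not cover the effect of scramble replicate 1.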

Additional observations from a re-analysis of the deposited data

Results flagged for a closer look

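Within the group of 4 pool libraries, 141 levels and summed list levels were examined for a single value far from the other 3, by Dixon's criterion, and 8 stood out. Chance gives about 1 in 20. Aprt was 20.4 CPM in pool 4 replicate 1 against 23.6 to 24.1 CPM in the others, and Ddx4 was 1.82 CPM in the same library against 2.91 to 2.96. Cyp26b1 was also apart there, at 122 CPM (121.979) against 114 CPM in each of the others, as was the summed level of oocyte markers at 3.88 CPM against 5.47 to 5.57. Cox5a, a cytochrome c oxidase subunit, was 102.5 CPM in pool 4 replicate 2 against 111 to 112. The summed level of ovulatory and luteal genes was 3906 CPM in pool 1 replicate 1 against 3784 to 3804. In pool 1 replicate 2 the summed ATF4 list was 1963 CPM against 1925 to 1931, and the summed BMP, TGF-beta and AMH list was 2739 CPM against 2828 to 2831.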

How the results depend on the processing

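Without scramble replicate 1, the 4787 calls of pools 1 and 4 against scramble stayed at 3583 to 4964 under every alternative run, and at 4073 to 4713 when a further library was left out. With all 7 libraries the 407 calls became 1173 with DESeq2, 4070 with limma-voom and sample quality weights, 116 with 3 groups, 707 with 5 groups, 1805 with the length correction and 67 with a replicate block; leaving out 1 library gave 63 (without pool 1 replicate 2) to 4787 (without scramble replicate 1), through 72 without pool 1 replicate 1, 74 and 77 without pool 4 replicates 1 and 2, and 98 and 215 without scramble replicates 2 and 3. Against pool 2, 307 calls became 691 with DESeq2, 5379 with only the pools compared, 4720 without scramble replicate 1, 173 with the replicate block and 42 to 119 with 1 library of the groups compared left out. Against pool 3, 2 calls became 193, 4195, 3469 and 0 under the same 4 settings, and 0 with any such library left out. Between pools 1 and 4, 0 became 2 with DESeq2 and 3 without scramble replicate 1. Deviations from the group mean of same-numbered libraries had correlations of −0.035 to 0.040. In a pool of 2 libraries these deviations mirror each other, and scramble replicate 1 enters the scramble mean. The check therefore cannot tell whether the numbers pair libraries. With scramble replicate 1 left out, replicate 1 held only pool libraries and replicate 3 only a scramble library. The block then in effect set scramble replicate 2 alone against pool 1 replicate 2 and pool 4 replicate 2. In the interferon list these lay at 0.14, 0.62 and 0.06. The block gave 3932 calls without scramble replicate 1, 67 with all libraries and 0 between pools 1 and 4. Of the 40 interferon genes, 3 rose and 0 fell with the block and without scramble replicate 1, with a median of 0.26, against 21 and 0.53 with no block. Akt2 at −0.01 ranged from −0.0724 (without scramble replicates 1 and 3) to 0.0486 (without replicates 1 and 2, edgeR adjusted p = 0.531). Among the named genes without scramble replicate 1, 1656 of the recomputed values kept direction and call, 66 kept direction and lost the call and that 1 changed sign. Where leaving out a library left 1 sample in a group, it is assumed to vary like the others. For each change of count other than those from fewer samples, the cause was not tested. Depth limits the scarce genes, such as Cyp19a1 with 56 to 105 reads per library.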
